A study of Homo sapiens with 12 samples.

Results

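The comparison sets 3 arrays labelled SKOV3 against 3 of TOV112D, gene by gene. SKOV3 and TOV112D are established human ovarian cancer cell lines, and the members are the arrays whose titles name either line (the label of TOV112D reads T112D), 3 arrays each, or 6 of 12 arrays in all. SKOV3 was started from the ascites of an ovarian adenocarcinoma and is known for amplification of ERBB2, a receptor tyrosine kinase gene. TOV112D was started from an endometrioid ovarian carcinoma. It is known for an activating mutation of beta-catenin, the transcriptional effector of Wnt signalling, and for loss of SMARCA4 and SMARCA2, the alternative ATPases of the SWI/SNF chromatin remodeller. The arrays of IGROV1 and TOV21G, the other ovarian lines of the series with 3 arrays each, entered the estimate of the spread and are given as reference levels.

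All cultures were the parental, untreated lines, with no allele or agent added. The media differed, DMEM for SKOV3 and RPMI for TOV112D, each with serum, so that medium and line cannot be told apart. Total RNA was hybridised to Affymetrix U133 Plus 2.0 arrays, which read each transcript with 1 or more probe sets. Values are log2 expression after robust multi-array averaging (RMA), on which a difference of 1 is a 2-fold difference. Values near 2 to 3 lie at the bottom of the scale, where a fold depends on that floor. Nothing in the labels says whether a line's 3 arrays are 3 cultures or 1, so the p-values reflect array-to-array spread, part or all of which may be technical. An array averages over a culture, so fewer cells with a transcript and less transcript per cell cannot be told apart.

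The labels were first checked against genes known to mark the lines. ERBB2 was measured at 8.08, 8.10 and 8.24 on the arrays labelled SKOV3 and at 8.71, 8.88 and 8.86 in TOV112D. The 3 arrays labelled SKOV3 thus lay below all 3 of TOV112D, by 0.68 ± 0.07 (SE) on the log2 scale (limma, adjusted p = 2.7e-06, n = 3 arrays per line), under the 2-fold minimum used for a call. GRB7, an adaptor gene that is amplified together with ERBB2, was at 4.44 and 4.25. Of 16 measured genes of the ERBB2 neighbourhood, 0 were called higher in the arrays labelled SKOV3 and 1, MIEN1, was called lower, at 8.41 against 9.79. High expression of ERBB2, for which SKOV3 is known, is therefore not seen on these arrays, and every direction given below holds for the arrays labelled SKOV3. In TOV112D, SMARCA4 was at 7.08, 7.01 and 7.24, against 10.39, 10.37 and 10.41 in the arrays labelled SKOV3, and SMARCA2 was near the floor at 2.65 ± 0.07 (SD, n = 3). SMARCA4 was at 10.15 in IGROV1 and 10.32 in TOV21G, so its low level set TOV112D apart. SMARCA2 did not, since it was at 3.83 on the arrays labelled SKOV3 and 2.85 in IGROV1, and differed by 0.05 by the probe set brightest over these 6 arrays.

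Lineage markers were then set beside the other lines. CDH1, the gene of E-cadherin, was near the floor, at 2.95 ± 0.38 (SD, n = 3) in the arrays labelled SKOV3 against 3.19 ± 0.39 in TOV112D, with arrays that overlapped. It was at 10.93 in IGROV1 but also low in TOV21G, at 4.20. PAX8, the lineage factor of the Mullerian tract, was at 7.12 ± 0.11 and 6.96 ± 0.19, against 10.26 in IGROV1 and 10.04 in TOV21G. The 95% interval of its difference between the lines ran from -0.04 to 0.37. VIM, the mesenchymal filament gene vimentin, was high in both, at 13.55 and 13.80, and also in IGROV1 and TOV21G, at 12.62 and 13.46. Over 4 leukocyte markers the mean level of an array was 3.12 to 3.26 for the arrays labelled SKOV3 and 3.54 to 3.66 in TOV112D, with 4 and 3 of these genes below the median of all values, which was 4.44.

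Over all genes the lines differed widely. Of 19775 genes tested, 1505 were called higher in the arrays labelled SKOV3 (7.61%) and 1680 lower (8.5%), with an adjusted p under 0.05 (limma with Benjamini-Hochberg adjustment) and a minimum log2 difference of 1. In all 16.1% were called, and every gene past the 2-fold minimum also passed the p threshold. Counts in the gene lists below are to be read beside these shares. Without a fold minimum 51.1% passed, and in 57.1% of genes the arrays of the lines did not overlap, so neither sets a gene apart here. A difference of at least 4, which is 16-fold, was seen for 217 genes in the higher direction and 153 in the lower, and a difference of at least 8 for 8 and 13. In 70 genes called higher and 59 called lower the mean was at or below the lower quartile of all values, 3.02, in one line and at or above the upper quartile, 6.88, in the other. In 79.1% of genes the 95% interval of the difference stayed within 1 of 0. Pearson's r across genes was 0.9972 to 0.9975 between arrays of 1 line and 0.9121 to 0.9134 between an array of each.

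**Figure D1:**
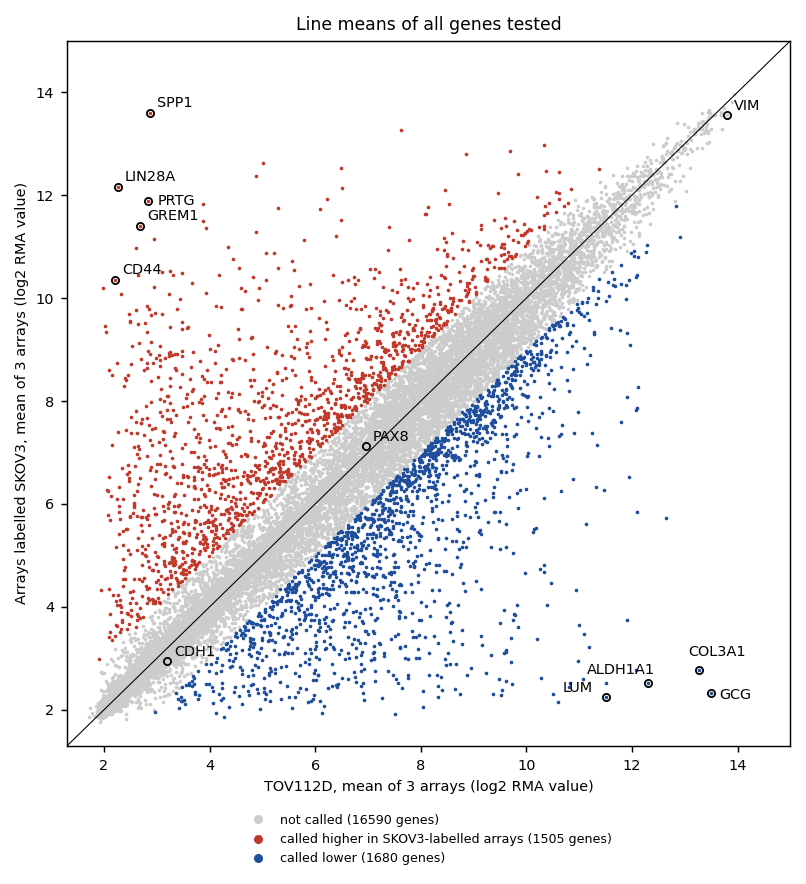
Mean log2 RMA value of each of 19775 genes over the 3 TOV112D arrays (x axis) and the 3 arrays labelled SKOV3 (y axis), with genes called higher or lower coloured. LIN28A and SPP1 lie at the upper left, at 12.16 and 13.60 against 2.26 and 2.87, GCG and COL3A1 at the lower right, and CDH1, PAX8 and VIM near the line of equal values.

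The largest differences were between transcripts that were abundant in one line and near the floor in the other. SPP1, the gene of the secreted phosphoprotein osteopontin, was at 13.58, 13.63 and 13.60 on the arrays labelled SKOV3 and at 2.83, 2.99 and 2.81 on those of TOV112D. The groups were far apart, by 10.73 ± 0.06 (SE, adjusted p = 1.5e-16). LIN28A, an RNA-binding protein of early development, was at 12.07, 12.03 and 12.37 against 2.20, 2.53 and 2.05, a difference of 9.90 ± 0.13 (adjusted p = 3.4e-14). PRTG, the gene of the immunoglobulin receptor protogenin of the early neural tube, was at 11.94, 11.86 and 11.84 against 2.54, 2.96 and 3.03, higher by 9.04 ± 0.13 (adjusted p = 4.0e-14). GREM1, a secreted antagonist of bone morphogenetic proteins, was at 11.35, 11.43 and 11.44 against 2.81, 2.71 and 2.55. Leading genes in each direction were ranked under set conditions. The higher mean had to reach the median of all values, and the arrays of the 2 lines could not overlap. Probe sets that may bind several transcripts were left out, among them that of KRT18, higher by 7.61. The 14 leading genes in this direction also held RBPMS (by 8.37), TCEAL7 (8.21), the hyaluronan receptor gene CD44 (8.15), TRIM71 (7.95) and PHLDB2 (7.80). After these came the receptor phosphatase gene PTPRZ1 (7.74), SPARC (7.61), S100A4 (7.49), the adhesion receptor gene ADGRL4 (7.44) and the semaphorin gene SEMA6A (7.43).

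In the opposite direction GCG, the gene of proglucagon, was at 2.41, 2.15 and 2.40 on the arrays labelled SKOV3 and at 13.55, 13.53 and 13.39 on those of TOV112D. It was the gene with the largest difference of all, 11.17 ± 0.10 (SE, adjusted p = 1.8e-15). COL3A1, the gene of the fibrillar collagen III, was at 2.67, 2.85 and 2.80 against 13.29, 13.30 and 13.22. ALDH1A1, a retinaldehyde dehydrogenase that makes retinoic acid, was at 2.45, 2.62 and 2.52 against 12.23, 12.35 and 12.30. These genes were at the floor on every array labelled SKOV3 and among the brightest in TOV112D. Next came the tight junction gene CLDN11 (lower by 9.29), the proteoglycan gene LUM (9.25), the fatty acid binding protein gene FABP5 (8.98), HOXC6 (8.49), the noncoding RNA gene DNM3OS (8.44), the RNA sensor gene IFIH1 (8.35), KCTD12 (8.29), the transcription factor gene NFIB (8.20), the Wnt inhibitor gene DKK1 (8.15), HOXB3 (8.04) and the prolactin gene PRL (7.96).

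**Figure D2:**
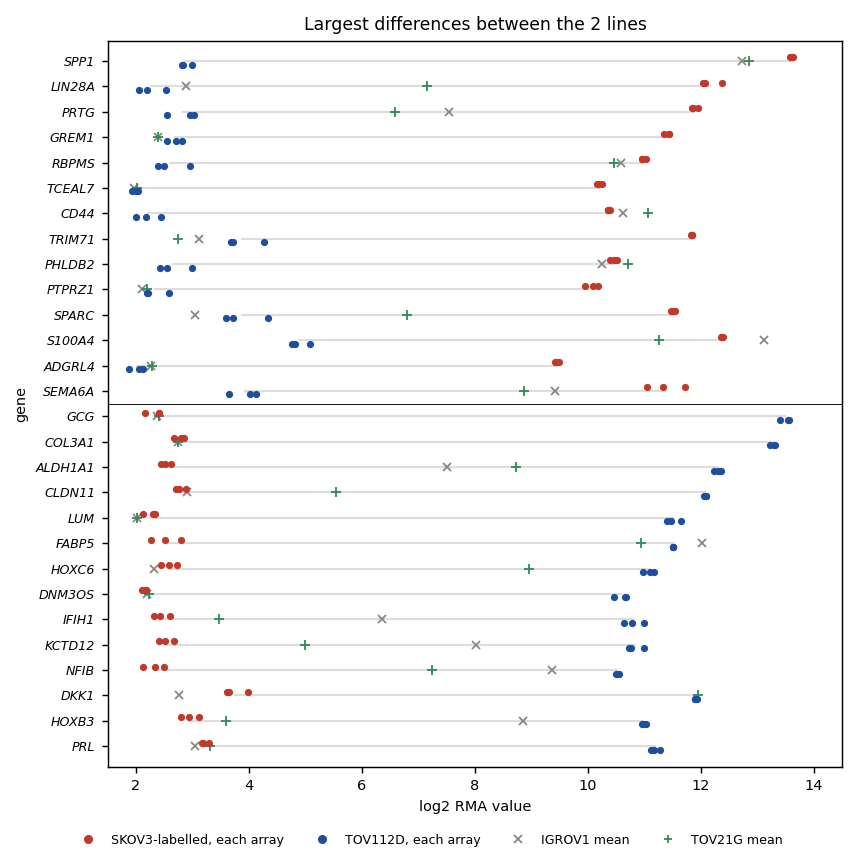
Log2 RMA values (x axis) of the 14 leading genes called higher and the 14 called lower in the arrays labelled SKOV3 (rows). Probe sets that may bind several transcripts were left out of the ranking. Each array of the 2 lines is a point, and the means of IGROV1 and TOV21G are crosses. Genes with overlapping arrays were not eligible, so the gap between the 2 lines is set by the choice. SPP1, RBPMS, CD44 and PHLDB2 have IGROV1 and TOV21G beside the arrays labelled SKOV3.

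The levels in IGROV1 and TOV21G show in which of the compared lines a gene was out of the ordinary. Of the 1505 genes called higher in the arrays labelled SKOV3, 609 (40.5%) had both other lines on the TOV112D side of the midpoint between the 2 means. LIN28A was among them, although TOV21G had an intermediate mean of 7.15, and GREM1, TCEAL7, PTPRZ1 and ADGRL4 were at 2.39 or less in either other line. Another 502 (33.4%) had both other lines on the SKOV3 side, such as SPP1 at 12.73 and 12.84 and CD44 at 10.61 and 11.06. Of the 1680 genes called lower, 671 (39.9%) had both others on the SKOV3 side, as for GCG, COL3A1, LUM and PRL. A further 569 (33.9%) had both on the TOV112D side, with FABP5 at 12.02 and 10.93. In the remaining called genes the other lines were split.

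Many regulators of the early embryo were higher in the arrays labelled SKOV3. These factors keep embryonic cells undifferentiated, and LIN28 proteins do so in part by blocking the maturation of let-7 microRNAs, which repress many growth genes. Of 25 measured regulators 12 were called higher and 1 lower, with a median difference of 0.75 on the log2 scale, against 0.0 over all genes. That median was 0.43 without SKOV3 array 1 and 1.36 without probe sets that may bind several transcripts. It was 3.55 over the 17 members left without dim genes, a filter that kept genes above the median of all values on at least 3 arrays. NANOG and OTX2 passed it only through the arrays labelled SKOV3, so the filter itself raises this value, which is no separate support. TRIM71, a repressor of messenger RNAs in embryonic cells, was at 11.84, 11.84 and 11.82 on the arrays labelled SKOV3 and 3.71, 4.27 and 3.68 on those of TOV112D. NANOG, a core pluripotency factor, was at 9.32, 8.99 and 9.03 against 2.53, 2.89 and 2.57; its near-identical retrocopies cannot be told apart from it on an array. OTX2, a homeobox factor of the anterior embryo, was at 8.59, 8.71 and 8.54 against 1.98, 2.22 and 2.09. PODXL, whose product podocalyxin carries stem cell surface antigens, was at 12.53 against 6.48. All 3 arrays labelled SKOV3 were above the TOV112D arrays for each of them. Further members, named after their values were seen, were SOX2 at 9.79 against 4.59, PRDM14 at 8.91 against 4.82, SALL4 at 9.46 against 5.62, ZIC2 at 11.64 against 8.09 and the methyltransferase gene DNMT3B at 9.85 against 8.69. LIN28B, the paralogue of LIN28A and also chosen after its values were seen, was present in both lines, at 10.83, 10.76 and 10.88 against 8.53, 8.47 and 8.51, and at 2.33 in IGROV1 and 2.57 in TOV21G. The 1 lower member was KLF4, at 2.84 against 4.92. POU5F1 had no probe set with a single gene symbol and was not analysed here.

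The microRNAs that LIN28 proteins act on share 1 seed, the stretch of bases 2 to 8 that pairs with targets, and these sequences are shown because the next gene group holds known let-7 targets. The array did not measure the mature molecules. From RefSeq (GRCh38.p14), with the seed in capitals, they read 5′ to 3′:
hsa-let-7a-5p: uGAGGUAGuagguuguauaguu
hsa-let-7d-5p: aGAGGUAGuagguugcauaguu
hsa-let-7g-5p: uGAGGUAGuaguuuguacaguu
hsa-let-7i-5p: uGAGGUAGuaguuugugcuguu
All 9 mature let-7 family members in the table had this seed. LIN28 proteins are known to bind GGAG in the loop of the precursor, and 8 of 11 let-7 family hairpins held GGAG between their arms. The loops below, with GGAG in capitals, come from the hairpin of let-7g on chr3:52268278-52268361 (minus strand) and of let-7d on chr9:94178834-94178920 (plus strand):
let-7g loop: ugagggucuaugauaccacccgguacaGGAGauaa
let-7d loop: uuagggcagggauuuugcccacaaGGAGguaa

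Genes known as let-7 targets or as oncofetal genes were higher in the arrays labelled SKOV3 in 12 of 19 cases and lower in 0, with a median difference of 1.76. CCND2, a cyclin that drives entry into the cell cycle, was at 11.96, 11.92 and 11.92 against 6.27, 6.27 and 6.13. It was also high in TOV21G, at 10.01. DLK1, a fetal Notch family protein gene, was at 7.90, 7.81 and 7.92 against 3.61, 3.30 and 3.56, and AFP, the fetal serum protein alpha-fetoprotein, at 7.96 ± 0.12 (SD, n = 3) against 3.85 ± 0.19. Neither was above 4.09 in the other lines. FIGN was at 9.05 against 5.60, with 8.07 in IGROV1 and 8.46 in TOV21G, so TOV112D held its low value. IGDCC3 was at 8.55 against 5.27, with 5.13 in IGROV1 and 5.38 in TOV21G. Further members, named after their values were seen, were already high in TOV112D: HMGA2, a chromatin protein gene, at 12.44 against 10.61 by its brightest probe set, while 3 of its 9 probe sets were called the other way, and IGF2BP1, an oncofetal RNA-binding protein gene, at 10.00 against 8.56. IGF2BP3 differed by an interval of 0.48 to 0.90.

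A probe set annotated to MIR302B, of a microRNA cluster known from pluripotent cells, was at 12.14 ± 0.23 (SD, n = 3) on the arrays labelled SKOV3 against 6.50 ± 0.35 in TOV112D, higher by 5.64 ± 0.16 (SE, adjusted p = 2.1e-11). It was chosen after its values were seen, and it was not absent from the others, at 8.27 in IGROV1 and 6.37 in TOV21G. The probe set does not report the mature molecules, whose shared seed is in capitals here because it is the feature that sets this family apart from let-7:
hsa-miR-302a-3p: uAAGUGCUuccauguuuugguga
hsa-miR-302b-3p: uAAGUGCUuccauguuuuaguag
All 4 listed members of the cluster had the seed AAGUGCU.

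The promoter of NANOG is printed for the composite motif that OCT4 and SOX2 bind side by side, since SOX2 and NANOG were both high in the arrays labelled SKOV3. The 250 bases upstream of its start, chr12:7789152-7789401 (plus strand, GRCh38.p14, RefSeq), held 1 match to the composite OCT4 and SOX2 motif on the minus strand, 120 to 107 bases upstream, in capitals:
NANOG promoter: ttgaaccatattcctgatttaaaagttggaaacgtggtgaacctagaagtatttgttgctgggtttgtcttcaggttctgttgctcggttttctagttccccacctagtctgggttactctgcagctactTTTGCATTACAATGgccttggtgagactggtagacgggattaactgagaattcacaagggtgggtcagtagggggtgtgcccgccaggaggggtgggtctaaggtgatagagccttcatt
Searched on both strands, the motif was in 2 of 35116 promoter windows of this length (0.0057%), or 2 of 27305 genes (0.00732%). It was in 1 of the 16 early embryo regulators with a promoter in the table. A match is a run of letters, not a measured site.

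Neural precursor and neuronal genes were split, with 11 of 30 called higher in the arrays labelled SKOV3 and 8 lower (median difference 0.09). PTPRZ1, a receptor phosphatase of neural progenitors, was at 9.95, 10.18 and 10.09 against 2.19, 2.59 and 2.22. NES, the progenitor filament gene nestin, was at 11.31, 11.21 and 11.30 against 4.54, 4.91 and 5.21. The adhesion genes NLGN4X (9.07 against 3.07) and NRCAM (8.90 against 3.04) were higher as well. On the TOV112D side were ROBO2, a receptor for the guidance cue SLIT, at 8.32 against 2.46, its ligand gene SLIT2 at 7.62 against 4.42, SOX11 at 8.44 against 4.69, STMN2 at 6.00 against 2.77 and the ephrin receptor gene EPHA3 at 10.40 against 7.29. TUBB3, neuronal tubulin, was above 12 in both lines, with an interval of 0.35 to 0.57. Among 21 germ layer and germ cell markers 5 were higher and 2 lower: TFAP2C at 8.36 against 4.02, DAZL at 5.79 against 2.07, GATA6 at 5.98 against 2.56, CER1 at 6.71 against 3.78 and EOMES at 5.27 against 3.81, with FOXA1 and MESP1 lower. GATA6 was not called by the probe set brightest over these 6 arrays (0.07), nor MESP1 by the mean of its probe sets (-0.44). Of these 21 markers 10 were below the median of all values in both lines, against 6493 of 19775 genes tested.

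Both lines expressed collagen genes, some chains in common and others high in 1 line. Collagen chains assemble in threes into fibrils or into the sheets of basement membranes. Of 30 measured chains 12 were called higher in the arrays labelled SKOV3 and 4 lower, with a median difference of 0.74. COL3A1, given above, was the extreme of TOV112D and was at the floor in every other line. COL2A1, the fibrillar chain of cartilage and early embryos, was the extreme of the arrays labelled SKOV3, at 10.17, 10.00 and 10.09 against 3.85, 4.11 and 3.81. COL1A1, the first chain of collagen I, was at 11.68, 11.58 and 11.63 against 8.06, 7.94 and 8.24, and COL5A1 at 9.85 against 5.53. COL9A3 and COL4A6 were higher by 3.61 and 3.52. COL12A1 was lower, at 6.22 against 9.82. COL5A2 and COL11A1 were abundant in both lines but lower in the arrays labelled SKOV3, at 10.90 against 12.27 and 9.89 against 10.95, while both genes were at 3.81 or less in IGROV1 and TOV21G. Of 22 genes of collagen processing 3 were higher and 5 lower. P3H2, a prolyl hydroxylase, was at 8.94 against 3.23, and the crosslinking oxidase gene LOXL1 at 8.24 against 3.08. P4HA2, another hydroxylase subunit, was at 5.77 against 8.68.

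Matrix glycoproteins and small proteoglycans were called in both directions. Of 44 measured, 16 were higher in the arrays labelled SKOV3 and 7 lower (median difference 0.2). Among the higher ones after SPP1 were genes of matricellular proteins, which modulate adhesion. SPARC was at 11.50, 11.46 and 11.54 against 3.60, 4.34 and 3.72, and TNC, the gene of tenascin C, at 10.53, 10.51 and 10.50 against 2.97, 3.31 and 2.98. TGFBI was higher by 6.63 and the thrombospondin gene THBS1 by 5.68. Among the lower ones were genes of small leucine-rich proteoglycans, which coat collagen fibrils. LUM was at 2.33, 2.13 and 2.30 against 11.64, 11.40 and 11.47, DCN, the gene of decorin, at 4.92, 4.91 and 5.31 against 9.76, 9.71 and 9.77, and EPYC at 2.24 against 5.50. HAPLN1, a link protein of hyaluronan, was lower by 3.61, and EFEMP2 by 2.47. POSTN, the gene of the matricellular protein periostin, was not called, at 9.57 and 9.42, with an interval of -0.17 to 0.46.

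Matrix proteases were led by different enzymes in each line, with 11 of 32 genes higher in the arrays labelled SKOV3 and 7 lower (median difference 0.12). The plasminogen activator genes PLAT and PLAU were higher, PLAT at 8.76, 8.79 and 8.95 against 2.78, 3.13 and 3.02 and PLAU at 8.82 against 4.43. ADAMTS9, TIMP4 and ADAMTS6 were higher by 3.61, 3.43 and 2.67. TOV112D expressed MMP10, a stromelysin, at 12.62, 12.69 and 12.64 against 5.94, 5.44 and 5.81, and MMP1, the interstitial collagenase, at 10.39, 10.38 and 10.21 against 4.65, 4.85 and 4.94. The aggrecan-cleaving enzyme genes ADAMTS5 and ADAMTS1 were at 10.39 and 12.09 against 4.03 and 7.86. TIMP2, a protease inhibitor, was lower in the arrays labelled SKOV3, at 7.77 against 10.29, while TIMP1 was above 11 in both.

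Receptors for the matrix were more often higher than lower in the arrays labelled SKOV3, with 11 of 27 called higher and 1 lower (median difference 0.54). Without SKOV3 array 3, TOV112D array 2 or TOV112D array 3, 2 were called lower. CD44, which binds hyaluronan and osteopontin, was at 10.35, 10.38 and 10.35 against 2.45, 2.17 and 2.00, and 9 of its 13 probe sets were called in this direction with 0 in the other. The heparan sulphate proteoglycan genes GPC4, SDC2 and GPC3 were at 10.76, 10.87 and 8.15 against 4.45, 5.07 and 4.43. The integrin subunit gene ITGB8 was at 6.69 against 2.35. The 1 lower member over all arrays was SDC1, at 6.81 against 9.04. ITGB1, the common integrin beta subunit, was above 12 in both lines.

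**Figure D3:**
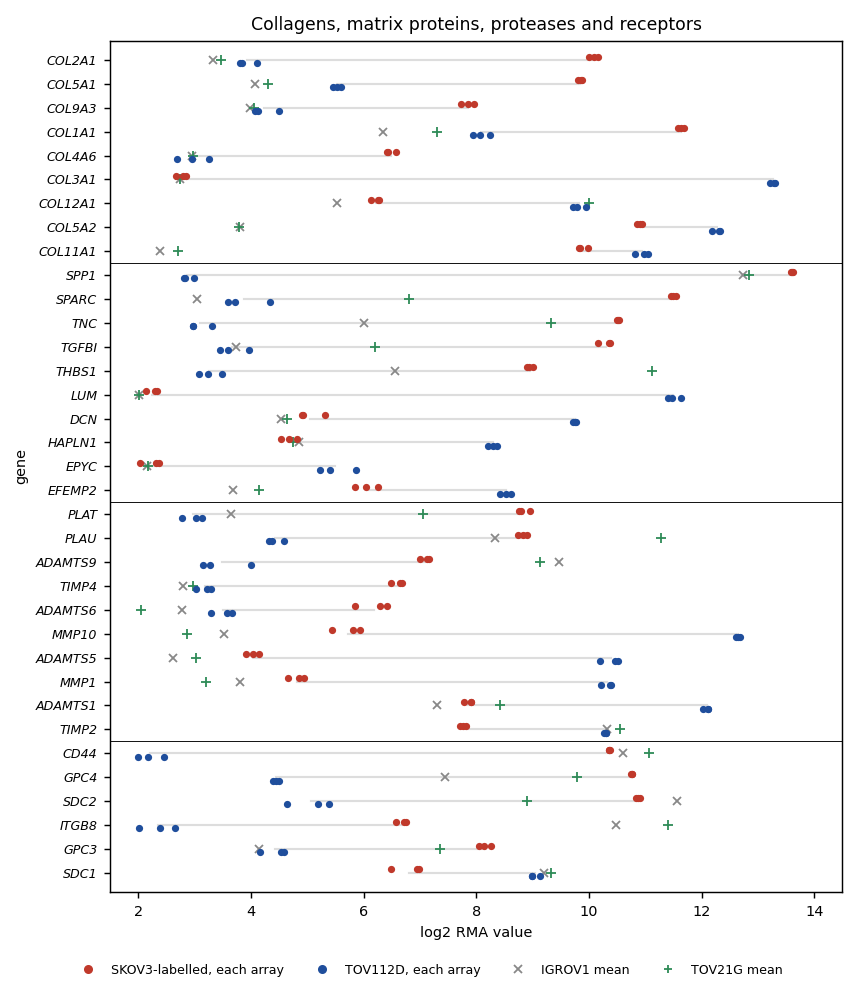
Log2 RMA values (x axis) of up to 5 members called in each direction in 4 gene lists (rows, separated by lines: collagen chains, matrix proteins, proteases with inhibitors, and matrix receptors), as a point per array and crosses for the means of IGROV1 and TOV21G. COL2A1, SPP1 and CD44 are high on the 3 arrays labelled SKOV3, and COL3A1, LUM and MMP10 on the 3 TOV112D arrays.

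The keratins KRT8 and KRT18 were high in the arrays labelled SKOV3 and low in TOV112D, while the simple keratin KRT19 was near the floor in both, at 2.76 and 3.02 with overlapping arrays. KRT8, of the keratin pair of simple epithelia, was at 11.76, 11.70 and 11.80 against 5.29, 5.39 and 5.20. Its partner KRT18 was at 12.64, 12.56 and 12.65 against 5.11, 5.30 and 4.61; both genes have many processed copies that an array may also read. Of 33 epithelial junction and keratin genes 7 were called higher and 2 lower (median difference 0.15). The desmosome genes DSP, PKP2 and DSG2 were higher by 6.53, 4.47 and 4.41. CLDN11, a claudin of Sertoli cells and myelin, was lower, at 2.88, 2.76 and 2.71 against 12.05, 12.09 and 12.08, and EPCAM was at 3.41 against 6.29. Of these 33 genes, 22 had an interval within 1 of 0, against 79.1% of all genes.

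Mesenchymal factors were spread over both lines, with 6 of 20 higher in the arrays labelled SKOV3 and 10 lower (median difference -0.97, or -0.51 over the mean of probe sets). TWIST1, a transcription factor of mesoderm, was at 7.92, 7.86 and 7.67 against 12.11, 11.94 and 12.18. PRRX1 and TWIST2, factors of mesenchyme, were near the floor in the arrays labelled SKOV3, at 3.30 and 3.29, and at 8.32 and 6.85 in TOV112D. The protocadherin genes PCDH7 and PCDH18 were lower by 6.53 and 3.82. ZEB1, a repressor of E-cadherin, ran the other way, at 8.87, 8.80 and 8.93 against 3.15, 3.86 and 3.44. The cadherin genes CDH6 and CDH2 were at 9.53 and 11.09 against 3.47 and 8.48, and S100A4 at 12.37 against 4.88. FOXF2 was also among the higher members, by 1.69. Of 27 contractile and actin genes 9 were higher and 4 lower (median difference 0.57). TAGLN, an actin-binding protein of smooth muscle, was at 11.81, 11.65 and 11.74 against 5.99, 5.93 and 6.38. The myosin kinase gene MYLK and the tropomyosin gene TPM1 were higher by 3.67 and 3.17, and SYNPO2 was lower by 5.52.

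Wnt pathway genes were called in both directions, 8 of 25 inhibitors and targets higher in the arrays labelled SKOV3 and 8 lower (median difference -0.19). In this pathway beta-catenin with TCF and LEF factors turns on targets, several of which inhibit the pathway in return. AXIN2, a feedback inhibitor and widely used reporter of the pathway, was at 9.05, 9.12 and 9.10 on the arrays labelled SKOV3 and 12.01, 11.92 and 11.95 on those of TOV112D, lower by 2.87 ± 0.14 (adjusted p = 2.6e-09). AXIN2 was higher in both than in IGROV1 at 4.74 and TOV21G at 5.55. DKK1, a secreted inhibitor of Wnt receptors, was at 3.99, 3.65 and 3.61 against 11.89, 11.89 and 11.92, and at 11.95 in TOV21G. WIF1 and DKK2, also secreted inhibitors, were at 9.61 and 8.41 in TOV112D against 3.13 and 2.38. TNFRSF19 and APCDD1 were lower by 4.19 and 2.88. The secreted frizzled-related proteins had the opposite order. SFRP2 was at 10.45, 10.50 and 10.53 against 3.70, 3.18 and 3.58 and SFRP1 at 9.40, 9.39 and 9.51 against 3.20, 3.42 and 3.12. BAMBI and TCF7L1 were higher by 2.57 and 1.52. CTNNB1, the gene of beta-catenin, was at 11.91 and 11.15, with an interval of 0.62 to 0.90.

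The promoter of DKK1 is printed because the gene had the largest difference of this list and its window held the TCF/LEF motif CTTTGAA. The match, in capitals, was on the plus strand 95 to 89 bases upstream of the start, within chr10:52314031-52314280 (plus strand, GRCh38.p14, RefSeq):
DKK1 promoter: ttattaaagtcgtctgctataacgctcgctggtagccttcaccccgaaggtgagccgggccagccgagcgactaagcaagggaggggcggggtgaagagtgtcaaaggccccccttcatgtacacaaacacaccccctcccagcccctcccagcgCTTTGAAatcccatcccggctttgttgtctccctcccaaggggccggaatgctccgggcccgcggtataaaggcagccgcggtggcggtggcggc
On both strands the motif was in 1336 of 35116 windows (3.8%), or 1286 of 27305 genes (4.71%). It was in 2 of the 15 list members with a promoter in the table. Of 26 Wnt ligands and receptors 6 were higher and 4 lower. ROR1, a receptor for noncanonical Wnt ligands, was at 9.45, 9.53 and 9.51 against 2.85, 2.55 and 2.54, and the R-spondin gene RSPO3 at 3.13 against 7.11. The frizzled genes FZD6 and FZD2 were higher by 2.21 and 1.91, and FZD1 was lower by 1.60.

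Members of the BMP and TGF-beta family were among the most divided, with 14 of 36 called higher in the arrays labelled SKOV3 and 9 lower (median difference 0.24). These secreted growth factors are held in check by extracellular antagonists. Among antagonists, GREM1 was at 11.41 against 2.69 and FST, the gene of follistatin, at 11.23, 11.11 and 11.30 against 6.41, 6.39 and 6.35, while NOG, the gene of noggin, was lower, at 7.87 ± 0.16 (SD, n = 3) against 10.42 ± 0.03. Among ligands, INHBE was higher by 5.48, and TGFB2 and INHBA lower, TGFB2 at 3.87, 4.01 and 4.22 against 10.00, 9.78 and 9.72 and INHBA at 5.28 against 8.66. Among receptors, BMPR1B was higher by 2.38 and BMPR2 lower by 3.14. ID2, a target of the pathway, was lower, at 11.19 against 12.91, and ID4, chosen after its values were seen, was higher, at 11.56 against 9.60.

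Growth factor genes were next. Of 29 FGF, PDGF and VEGF genes 10 were higher and 4 lower (median difference 0.3). KDR, the main receptor for VEGF, was at 7.31, 7.41 and 7.51 against 3.11, 3.21 and 3.02, and was below 3.11 in the other lines. FGF13 was at 10.14 against 4.67 and FGFR2 at 8.27 against 3.44. The lymphatic growth factor gene VEGFC was at 2.39, 2.61 and 2.71 against 9.65, 9.57 and 9.62, and FGF9 at 3.54 against 7.83. Of 14 IGF pathway genes 6 were higher and 1 lower. IGF1R, the receptor gene, was at 9.83, 9.93 and 9.71 against 3.86, 4.25 and 4.54. IGFBPL1, IGFBP5 and IGFBP7 were higher by 5.28, 4.37 and 2.88, and IGFBP3 was lower by 4.70.

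HOX genes, which set position along the body axis and lie in clusters, were mostly lower in the arrays labelled SKOV3. Of 25 measured, 1 was called higher and 16 lower, with a median difference of -2.02. All 9 measured HOXB genes were called lower there, HOXB13 with the smallest margin: it was not called without SKOV3 array 1 (-0.89) or with arrays centred on their median (-0.95). HOXB3 was at 3.12, 2.93 and 2.79 against 11.02, 10.97 and 10.96, HOXB2 at 5.75, 5.71 and 5.08 against 10.09, 10.06 and 10.28, and HOXB7 at 3.36, 3.18 and 3.29 against 8.72, 8.84 and 8.79. The highest HOXB mean was 6.06 for the arrays labelled SKOV3 but 10.98 for TOV112D. Of 8 HOXC genes 6 were lower. HOXC6 was at 2.45, 2.58 and 2.73 against 11.09, 10.97 and 11.17, HOXC10 at 3.26 against 9.16 and HOXC9, named after its values were seen, at 3.56 against 8.78. The 7 HOXD genes were at 5.33 or less in both lines, and the 1 gene called higher, HOXD13, was at 5.33 against 4.30, a call that ended without array 2 of either line (0.98 and 0.71). A single HOXA gene was measured, HOXA2, chosen for that reason and lower by 2.32.

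**Figure D4:**
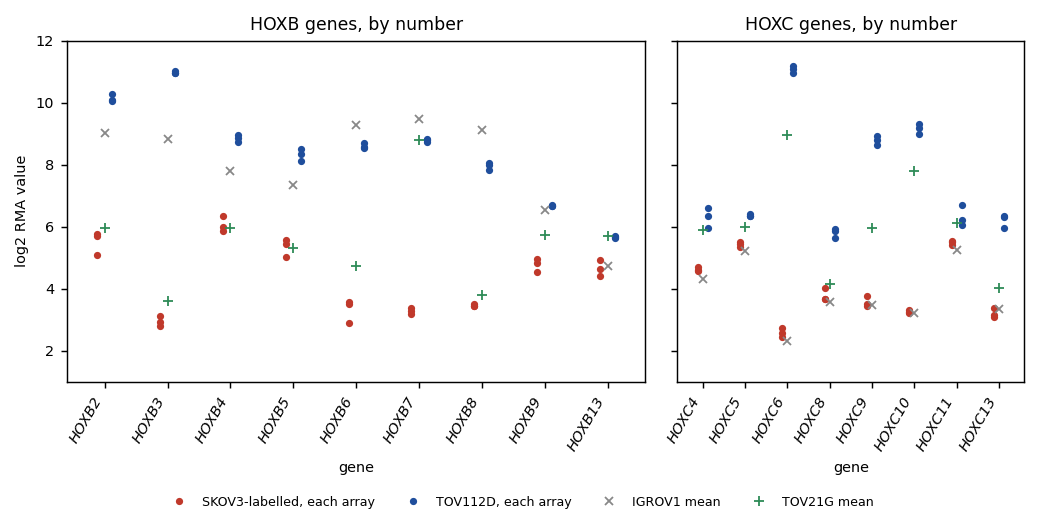
Log2 RMA values (y axis) of the measured HOXB genes (left) and HOXC genes (right), in order of their number, with a point per array for the 2 lines and crosses for the means of IGROV1 and TOV21G. The arrays labelled SKOV3 lie below the TOV112D arrays at all 9 HOXB genes, while the IGROV1 means are 9.03 at HOXB2, 8.84 at HOXB3 and 2.32 at HOXC6.

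The HOXB genes formed the longest run of neighbours. Along the chromosome, leaving out unmeasured genes, 14 consecutive genes from HOXB2 to HOXB13 on chromosome 17 were called lower, ending at HOXB13 with the exceptions given for it. The run includes the transcripts HOXB-AS1, HOXB-AS3, LINC02086 and PRAC1 and a probe set annotated to MIR10A, at 3.61 against 5.32. Homeobox genes outside the clusters were also more often lower, with 11 of 28 lower and 4 higher (median difference -0.08). MEIS1, a cofactor of HOX proteins, was at 6.05, 6.16 and 6.16 against 10.40, 10.30 and 10.27. DLX2 and DLX1 were lower by 3.30 and 3.08, and IRX5 by 3.07. ALX1 and LHX2 were higher, at 8.41 against 4.77 and 10.16 against 8.17.

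Among 23 SWI/SNF subunits 2 were higher and 4 lower, or 1 and 2 with probe sets averaged. Over all genes 7.61% were higher and 8.5% lower. SMARCA4 was higher by 3.28 ± 0.07 (adjusted p = 1.4e-12) and SMARCA2 by 1.18, but SMARCA2 was dim in both lines and 1 of its 7 probe sets was called the other way. It was at 3.83 and 2.65, against 6.73 in TOV21G, and its difference was 0.05, no longer called, by the probe set brightest over these 6 arrays. SMARCD3 was lower, at 4.92, 4.76 and 4.42 against 8.38, 8.52 and 8.52. SMARCE1 was at 10.61 and 10.71, and 17 of the 23 had an interval within 1 of 0, against 79.1% of all genes.

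Genes of retinoid handling were divided between the lines, 7 of 29 higher in the arrays labelled SKOV3 and 5 lower (median difference 0.0). Retinoic acid is made from retinal by ALDH1A enzymes, is carried by CRABP and FABP proteins, and is degraded by CYP26 enzymes. Besides ALDH1A1, the enzyme gene ALDH1A3 was lower, at 3.75 against 5.92. The carrier gene FABP5 was at 2.80, 2.52 and 2.26 against 11.50, 11.51 and 11.51, though it too has processed copies that an array may read, and the receptor gene RARB, itself induced by retinoic acid, at 5.56, 5.68 and 5.72 against 9.25, 9.39 and 9.20. CRABP2 and CYP26A1 were higher, at 9.17 against 5.92 and 8.53 against 6.59. ALDH2, the mitochondrial enzyme that clears acetaldehyde, was at 9.96, 9.89 and 10.00 against 6.14, 6.18 and 6.18.

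Some peroxide-removing enzymes were very low in the arrays labelled SKOV3. GPX1, the main cytosolic glutathione peroxidase, was at 3.72, 2.95 and 3.76 against 11.03, 11.14 and 11.13, and CAT, the gene of catalase, at 3.56, 3.45 and 3.30 against 9.18, 9.15 and 9.13. IGROV1 and TOV21G had both, with CAT at 10.73 and 9.81. GPX3, a secreted peroxidase, was higher, at 8.79 against 3.07. NOX4, an oxidase that produces hydrogen peroxide, was at 9.59, 9.57 and 9.53 against 2.54, 2.56 and 2.38 and at 2.55 or less in the other lines. ME1, which makes NADPH, was higher by 5.30 and MGST2 by 3.04. In all 9 of 33 glutathione and redox genes were higher and 6 lower.

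Genes of antigen presentation tended to the TOV112D side, with 6 of 17 MHC class I genes called lower and 0 higher (median difference -0.55), or 3 of 15 without probe sets that may bind several transcripts. PSMB9, an immunoproteasome subunit, was at 2.98, 3.28 and 3.22 against 6.32, 6.58 and 6.54, and TAP1, a subunit of the peptide transporter, at 5.46, 5.15 and 5.25 against 7.49, 7.63 and 7.58. HLA-B was at 8.70 against 10.19 and B2M at 10.79 against 12.12. Interferon-stimulated genes did not move as 1 group, with 8 of 32 higher and 7 lower (median difference 0.1). IFIH1, a sensor of double-stranded RNA, was at 2.32, 2.60 and 2.43 against 10.99, 10.64 and 10.77. IFI44, IFI6 and IFI35 were lower by 4.79, 2.72 and 2.53. The antiviral membrane protein genes ran the other way: IFITM3 was at 10.44 ± 0.10 (SD, n = 3) against 4.18 ± 0.17, IFITM2 at 10.19 against 4.60 and IFITM1 at 7.36 against 3.79. These 3 are close in sequence and may share signal. BST2 was higher by 5.53. Among 25 cytokines and chemokines 4 were higher and 3 lower, and 13 were below the median of all values in both lines. Of all 19775 genes tested, 6493 were below it in both. CXCL14 was at 3.37, 3.36 and 3.41 against 10.09, 10.32 and 10.23, and CXCL5 at 8.37, 8.36 and 8.48 against 2.41, 2.71 and 2.11.

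Genes of the EGF receptor family and of MAPK output were mostly higher in the arrays labelled SKOV3, with 14 of 24 called higher and 3 lower and a median difference of 1.05. With probe sets averaged, 0 were called lower and the median was 0.74. PHLDA1 was at 11.54, 11.29 and 11.31 against 7.38, 7.54 and 7.27. The feedback inhibitor genes SPRY2 and DUSP5 were at 10.27 and 8.60 against 6.75 and 5.57, and DUSP4 at 6.30 against 3.98. NRG1, a ligand of the EGF family, was lower, at 7.38 against 9.10, or by -0.83, not called, with probe sets averaged.

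Of 25 target genes of p53, 11 were called higher and 2 lower, or 1 lower with centred arrays (median difference 0.88). TP53INP1, an inducer of cell death, was at 8.60, 8.28 and 8.38 against 3.68, 3.88 and 3.34. SESN2 was higher by 2.55, and FAS, a death receptor gene, by 2.09. Another death receptor gene, TNFRSF10A, was lower, at 3.17, 3.23 and 2.94 against 8.67, 8.47 and 8.42. CDKN1A, named after its values were seen, was higher by 1.21 but lower than in IGROV1 and TOV21G, at 7.70 against 9.39 and 11.59. Of 19 G1 cell cycle genes CCND2 and CCND1 were higher and 4 were lower (2 with probe sets averaged), with CDKN2A, the gene of the inhibitor p16, at 7.92 against 9.62 by a probe set that may also bind other transcripts.

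A list of 27 genes held targets of YAP and TEAD, the effectors of the Hippo pathway, together with pathway genes such as YAP1 and LATS2. Of these 27 genes, 10 were called higher and 2 lower, or 1 lower with probe sets averaged (median difference 0.63). ANKRD1, a widely used target, was at 9.54, 9.59 and 9.42 against 2.76, 2.91 and 2.65. CAV1, the main caveolar protein gene, was at 11.51, 11.47 and 11.55 against 6.29, 6.65 and 6.51, its neighbour CAV2 higher by 4.43 and the ectonucleotidase gene NT5E by 4.95. YAP1 was at 11.32 and 10.87, with an interval of 0.31 to 0.60. Of 22 S100 and annexin genes, which bind calcium, 9 were called higher and 1 lower. ANXA3 was at 9.71, 9.80 and 9.80 against 2.67, 2.63 and 2.51, S100A16 at 10.73 against 5.56 and S100A13 at 10.36 against 6.81. ANXA4 was the 1 lower member, at 7.73 against 9.06.

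Peptide hormones gave each line a different set, with 10 of 34 higher in the arrays labelled SKOV3 and 5 lower. TOV112D expressed GCG and PRL, the latter at 11.17, 11.11 and 11.27 against 3.19, 3.17 and 3.30, together with the granule protein genes CHGB and SCG5, at 8.73 and 7.09 against 5.13 and 3.11. The arrays labelled SKOV3 were higher for GAL, the gene of the neuropeptide galanin, at 8.95, 8.71 and 8.84 against 3.21, 2.94 and 3.32, and for EDN1, the gene of endothelin, at 8.36 against 4.21. NTS, the gene of neurotensin, was at 12.10 against 8.46, and CPE, a prohormone-processing enzyme gene, at 10.41 against 6.74.

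Genes known for allele-specific or X-linked expression also differed. PEG3, an imprinted zinc finger gene, was at 2.34, 2.43 and 2.76 against 9.66, 9.80 and 9.69, and GRB10 and ZDBF2, also imprinted, were higher by 4.65 and 4.29. Of 21 imprinted genes 5 were higher and 3 lower. Among 20 X-linked ARMCX, BEX and TCEAL genes 6 were higher and 6 lower. TCEAL7 was at 10.18, 10.15 and 10.24 against 1.92, 2.00 and 2.03, and ARMCX1 at 2.72, 2.65 and 2.66 against 8.84, 8.86 and 8.94. PRAME, a tumour antigen gene, was at 4.27, 4.28 and 4.46 against 10.90, 10.92 and 10.99, and 17 of 20 cancer-testis genes were below the median of all values in both lines. Over all genes 6493 of 19775 were below it in both.

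Of the remaining lists, smaller shares of Mullerian, cholesterol and mismatch repair genes were called than of Notch, drug transport and glycolysis genes. Over all genes 16.1% were called. Of 22 Mullerian and ovarian carcinoma markers 2 were higher and 0 lower, WT1 at 8.88, 8.89 and 8.89 against 2.99, 3.74 and 3.12 and MECOM at 5.89 against 2.74. Of 20 cholesterol and fatty acid synthesis genes 2 were higher (1 with probe sets averaged) and 2 lower, and of 7 mismatch repair genes 0 were called, although limma gave several of them an adjusted p under 0.05 at differences of 0.65 or less. Of 20 Notch genes 4 were higher and 6 lower, with the effector gene HEY1 at 6.46, 6.50 and 6.61 against 11.92, 11.96 and 11.95 and the ligand gene JAG2 at 4.83 against 8.09. Of 21 drug transporter and platinum response genes 5 were higher and 6 lower. With probe sets averaged, or without those that may bind several transcripts, 3 were higher, and the median of 0.38 became -0.11 under the latter. They included the efflux pump gene ABCG2, at 8.21, 8.12 and 8.27 against 3.46, 3.53 and 3.98, and the copper pump gene ATP7A at 4.02 against 7.47. Of 25 glycolysis and hypoxia genes 7 were higher and 3 lower, with the glucose transporter genes SLC2A1 and SLC2A3 at 9.39 and 12.80 against 4.53 and 8.86.

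**Figure D5:**
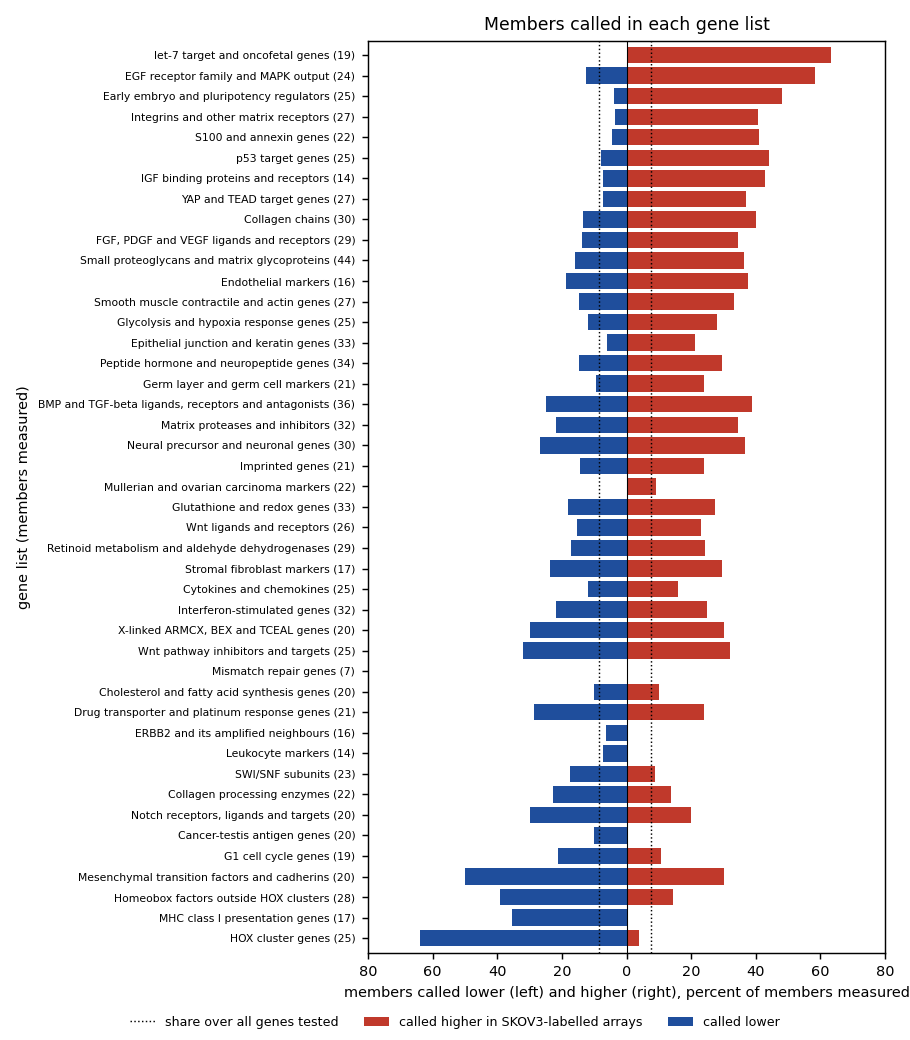
Share of the measured members of each of 44 gene lists (rows, number measured in brackets) called higher (right) or lower (left) in the arrays labelled SKOV3, in percent, with dotted lines at the shares over all genes, 7.61% and 8.5%. Early embryo regulators and the list of let-7 target and oncofetal genes extend to the right, and HOX cluster genes to the left.

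Markers of cell types that could be mixed into a culture were examined beside these results. Of 16 endothelial markers 6 were higher in the arrays labelled SKOV3 and 3 lower, and the mean level over the list was 4.94 to 5.11 on these arrays and 4.03 to 4.09 in TOV112D. Differences over this list ran from -3.75 to 7.44. The endothelial genes TIE1 and CDH5 were at 5.83 and 5.81 against 2.55 and 2.97. TIE1 was called by 1 of its 2 probe sets, and CDH5 was at 4.67 in IGROV1. PECAM1 was at 4.97 and 5.04 by the probe set brightest over all 12 arrays and higher by 4.71 by the one brightest over these 6. Of 17 stromal fibroblast markers 5 were higher and 4 lower, with list means of 6.72 to 6.81 and 7.12 to 7.23. PDGFRB was at 6.24 against 4.78 and FAP at 3.83 against 7.58. Of 14 leukocyte markers 0 were higher and 1, PTPRC, was lower, at 2.84 against 4.58, and fell by 0.85 over the mean of its probe sets, which is not called. The part of such cells in the results was not tested.

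Most called genes rested on more than 1 probe set where more existed. Of 1951 called genes with over 1 probe set, 1550 had every probe set in the same direction, 1141 had at least 2 called in that direction, and 12 had a probe set called the other way. The remaining 1234 called genes had 1 probe set, among them LIN28A, TRIM71, GCG, ALDH1A1 and HOXC6. COL3A1 was called by 5 of 5 probe sets and PRTG by 3 of 3.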

How the data were processed

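Total RNA of 4 ovarian cancer lines, 3 arrays each, was measured on Affymetrix U133 Plus 2.0 arrays. The authors deposited log2 values made with RMA in the affy package, per the submitters' processing notes, with no version given. RMA removes background and equalises arrays, which sets a floor and limits the folds of dim genes. No genome build is named in the array values; sequences and gene order come from RefSeq on GRCh38.p14.

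Of 54675 probe sets, 41091 with a single gene symbol were used, and 1801 with several genes were left out, as were 11777 that were unnamed. Each of 19775 genes was read by its brightest probe set over the 12 arrays. Line means were fitted with limma 3.58.1 in R 4.3.3 (lmFit and eBayes), all 4 lines sharing one estimate of the spread, and p-values were adjusted over all genes by Benjamini-Hochberg. A call needed an adjusted p under 0.05 and at least 2-fold. On simulated data for this comparison with 19775 genes, 50 of 50 genes changed by 1.5, 2, 3 or 4 log2 units were recovered at each size, with 0 false calls. These changes all lay above the 2-fold minimum, and the noise was drawn from the array-to-array spread. The simulation therefore does not give the error of calls near that minimum, nor the spread between cultures. The number of arrays limits the precision, with 3 per line.

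The genes and the 44 lists were chosen with earlier results of these data known. Named genes are the markers, the 14 leading genes each way, up to 5 called members of each list per direction, genes known to mark a line, the 3 longest runs of neighbours and up to 2 members per list with a difference within 1 of 0. Others are said to be chosen after their values were seen. Alternatives changed the probe set rule, dim-gene filter, scaling, prior, arrays fitted, threshold, replicate block and arrays left out. No sample was left out of the 12.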

Additional observations from a re-analysis of the deposited data

How the results depend on the processing

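The 1505 genes called higher and 1680 called lower became 669 and 600 at 4-fold with an adjusted p under 0.01, and 4761 and 5350 with no minimum fold (limma). Under the other alternatives both counts stayed within 1.5 times, from 1239 and 1404 when probe sets of a gene were averaged to 1607 and 1554 with arrays centred on their median, where 50.8% of calls were higher against 47.3%. Leaving out an array gave 1470 to 1529 higher and 1660 to 1732 lower. Deviations from the line means correlated at -0.0208, -0.0543 and 0.0269 between same-numbered arrays of the lines. Arrays of different number were not compared in this way, so these values do not show what a shared number stands for. With the replicate number as a block the counts were 1505 and 1680. Of the genes named, 258 in all, 6 lost their call and 2 turned sign with the mean of probe sets, and 2 and 2 with the probe set brightest over the 6 arrays. The sign turned for CDH1 (0.04) and PECAM1 (4.71) under the latter, and for HMGA2 (-0.47) and PECAM1 (2.42) under the former. COL11A1 and HOXB13 (-0.95) fell just short of a call with centred arrays. Medians of short lists moved more than their counts. Genes near the floor have uncertain folds.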

Other observations

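Called genes were also examined by their order along the chromosomes, using the gene order of RefSeq on GRCh38.p14; these stretches were chosen after the calls were seen. There were 24 runs of at least 4 neighbouring measured genes called in the same direction, 10 higher and 14 lower, holding 116 genes. On chromosome 6, from DSP-AS1 to JARID2, 25 of 42 measured genes were called higher in the arrays labelled SKOV3 and 0 lower, with a median difference of 1.19 on the log2 scale. The members include DSP, GCNT2, TMEM14C, TMEM14B, EDN1, NOL7 and CD83. Over chromosome 6 as a whole 9.73% of genes were called higher. TMEM14C was at 11.10, 11.07 and 11.12 against 8.70, 8.88 and 8.82 in TOV112D, with 10.64 in IGROV1 and 11.22 in TOV21G, so TOV112D held the low value for this gene. Both other lines were on the SKOV3 side of the midpoint in 11 of the 25 called genes and on the TOV112D side in 4.

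On chromosome 2, from DPP4 to GALNT3, 12 of 15 measured genes were called lower in the arrays labelled SKOV3 and 1 higher, with a median difference of -3.55. GCG, FAP and IFIH1 lie in this stretch, and so do GRB14, COBLL1, SCN2A and GALNT3. COBLL1 was at 6.13, 6.24 and 6.39 against 10.68, 10.68 and 10.62, with 10.88 in IGROV1 and 10.08 in TOV21G. It was the 1 called gene of the stretch with both other lines on the TOV112D side of the midpoint. In 7 called genes, GCG and IFIH1 among them, both other lines were on the SKOV3 side. GALNT3 was at 2.25, 2.25 and 2.67 against 9.56, 9.44 and 9.60. The 1 higher member was FIGN. On chromosome 16, from RBL2 to IRX5, 6 of 8 were called lower and 0 higher. On chromosome 7 the 4 neighbours TES, CAV2, CAV1 and MET were all called higher, with a median difference of 4.73. Gene copy number was not measured here.

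Shares by chromosome left out chromosome Y, mitochondrial genes, genes not matched in RefSeq and 8 genes of unknown chromosome. The share of genes called lower ran from 4.81% on chromosome 11 to 13.6% on chromosome 14. The share called higher ran from 2.89% on chromosome 21 to 11.6% on chromosome X. Chromosome 17 had 4.26% higher and 12.2% lower, and the 14 genes of the HOXB run are among its 137 lower genes.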
